A study of Mus musculus with 12 samples.

Results

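Sialyltransferases and carbohydrate sulfotransferases are Golgi enzymes that finish the sugar chains of glycoproteins, glycolipids and proteoglycans. The family was taken by symbol alone, as every row of both count tables whose name begins with St3gal, St6gal (St6galnac included), St8sia, or Chst and a digit. That gave 34 genes of 44345 gene names, of which 20 encode sialyltransferases (6 ST3Gal, 2 ST6Gal, 6 ST6GalNAc and 6 ST8Sia genes) and 14 encode carbohydrate sulfotransferases (Chst genes). Although the symbols fixed the members, the family was taken up with its housing values known, St6gal2 in captured neurons among them, so the housing values below are a description and carry no test of their own.

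The RNA came from dorsal root ganglia (DRG), the clusters of sensory neurons beside the spinal cord, at the levels that feed the sciatic nerve, of C57BL/6 mice 5 to 8 weeks old. Mice spent 10 days in environmental enrichment (EE) or in standard housing (SH), and the comparison asks which transcripts differ between these housings. The 4 groups of 3 libraries were captured neurons of EE mice, captured neurons of SH mice, whole ganglia of EE mice and whole ganglia of SH mice, and the labels name no altered gene in any of them. Captured libraries held neurons at least 30 µm wide, cut by laser from sections stained with toluidine blue, 3 mice to a library, in RNA with an integrity number of 6 to 7 that went through a RiboZero ScriptSeq kit. Whole-ganglion libraries pooled 2 mice each, had RNA with an integrity number above 7.5 and were made with a TruSeq mRNA kit. No label says whether libraries of a group shared animals, so the spread between libraries may be partly technical.

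Sialic acid is the charged sugar at the outer end of many chains. ST3Gal and ST6Gal enzymes attach it to galactose, ST6GalNAc enzymes to N-acetylgalactosamine, and ST8Sia enzymes attach it to another sialic acid, which makes the complex gangliosides of nerve membranes and the polysialic acid of the adhesion molecule NCAM. Chst enzymes add sulfate to the chains of keratan, chondroitin and dermatan sulfate, to the HNK-1 epitope and to glycoprotein sugars, all of them found in nerve tissue.

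Captured libraries held 19296230 to 29434351 reads in genes and whole-ganglion libraries 11343579 to 17036481. Summed markers of myelinating Schwann cells (12 genes) were at 1046 to 1327 CPM (the reads of a gene relative to all reads in genes of its library) in captured EE and 1132 to 1474 CPM in captured SH libraries, against 6536 to 9732 CPM in whole EE and 7629 to 9357 CPM in whole SH ganglia, while all 17 large-diameter neuron markers and all 24 nociceptor markers were detected in both preparations. Fibroblast sums were also lower in every captured library, at 537 to 852 CPM against 1610 to 2059 CPM in whole libraries. So were macrophage sums (56.0 to 89.0 against 137 to 179 CPM) and erythrocyte sums (15.4 to 29.0 against 117 to 326 CPM). Sums of all sensory neurons were lower too (5735 to 6717 against 8747 to 9361 CPM), and endothelial sums overlapped. Large-diameter neuron, nociceptor and satellite glia sums did not set captured neurons apart in the direction of their label in both housings. Large-diameter neuron markers summed to 11372 to 15225 CPM in captured EE and 8617 to 10957 CPM in captured SH libraries, against 14174 to 14747 CPM in whole EE and 15308 to 16428 CPM in whole SH ganglia. Nociceptor markers reached 5143 to 6026 CPM in captured SH, against 4754 to 5404 CPM in whole SH libraries, and satellite glia markers 3812 to 4170 CPM in captured SH, against 4260 to 4567 CPM in whole SH libraries. By these CPM, transcripts of small-diameter neurons and of satellite glia were as plentiful, or nearly so, in captured SH as in whole SH libraries. In EE libraries nociceptor markers summed to 3985 to 4962 CPM in captured, against 4948 to 5100 CPM in whole. Satellite glia markers went the other way in EE, with 4521 to 4773 CPM in captured against 3931 to 4432 CPM in whole. The kits differ between the preparations, and CPM do not correct for that. In bulk libraries, fewer cells of a type and less RNA per cell cannot be told apart.

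The promoters of 3 genes are shown. St6gal2 and Chst14 had the most negative housing estimates in captured neurons, and Chst2 had the largest positive estimate relative to its standard error (SE), though not the largest estimate. Each is the stretch from 250 bases before to 50 bases after the RefSeq start on GRCm38.p6, read 5′ to 3′ on the strand of the gene. Capitals mark every match to the GC box (GGGCGG) and to an E-box (CACGTG) on either strand.
St6gal2, chr17:55445132-55445431, plus strand: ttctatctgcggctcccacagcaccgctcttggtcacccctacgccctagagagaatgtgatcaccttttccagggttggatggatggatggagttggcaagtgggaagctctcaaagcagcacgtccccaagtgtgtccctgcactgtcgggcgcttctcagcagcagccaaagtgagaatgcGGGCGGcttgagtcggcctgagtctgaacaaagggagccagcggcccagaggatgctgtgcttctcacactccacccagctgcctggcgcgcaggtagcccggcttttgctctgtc
Chst14, chr2:118926247-118926546, plus strand: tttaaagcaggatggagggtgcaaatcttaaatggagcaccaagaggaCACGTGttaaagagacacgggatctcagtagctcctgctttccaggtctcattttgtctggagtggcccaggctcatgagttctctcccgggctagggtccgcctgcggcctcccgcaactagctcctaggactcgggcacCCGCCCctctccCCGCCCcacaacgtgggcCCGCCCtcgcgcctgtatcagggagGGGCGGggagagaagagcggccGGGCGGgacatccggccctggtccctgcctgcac
Chst2, chr9:95407221-95407520, minus strand: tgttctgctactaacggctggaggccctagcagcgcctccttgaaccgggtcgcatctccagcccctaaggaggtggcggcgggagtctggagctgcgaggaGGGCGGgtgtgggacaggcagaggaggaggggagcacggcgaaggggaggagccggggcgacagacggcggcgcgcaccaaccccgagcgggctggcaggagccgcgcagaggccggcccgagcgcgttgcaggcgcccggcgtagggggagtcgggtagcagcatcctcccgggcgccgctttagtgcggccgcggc

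The Chst14 window held 5 GC boxes, 1 E-box and 18 CpG dinucleotides, the St6gal2 window 1 GC box and 13 CpG, and the Chst2 window 1 GC box and 34 CpG. RefSeq promoters could be matched for 26 of the 34 genes, 30 windows in all. The GC box occurred in 23 of these 30 windows, against 35.7% of the 32851 promoters in the reference, and the median CpG count was 20, against 7 over all promoters. None of the 30 held TATAAA, which 13.6% of all promoters hold, or TGACGTCA, the full cyclic AMP response element, which 1.79% hold, and CACGTG occurred in 2 of the 30, against 7.15% overall. A match is a run of letters in this window and does not show that a factor binds there.

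In captured neurons, St6gal2, St6galnac5, Chst14 and, by a narrow margin, St6gal1 had lower CPM in every EE library than in any SH library, and Chst2, Chst9 and Chst8 had higher CPM in every EE library. No member passed the threshold of an adjusted p of 0.05 in edgeR's quasi-likelihood test, in which 3 of 16186 genes were called (0.0185%). Of the 34 genes, 30 had enough reads to enter that fit, and Chst4, Chst7, Chst13 and St6galnac1 did not. An unadjusted p under 0.05 was found for 5 of the 30, or 16.7%, against 15.9% of all genes. EE and SH libraries did not overlap for 7 of the 30 (23.3%), against 20.9% of all genes, 3 with EE higher (9.82% of all genes) and 4 with EE lower (11.1%).

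**Figure D1:**
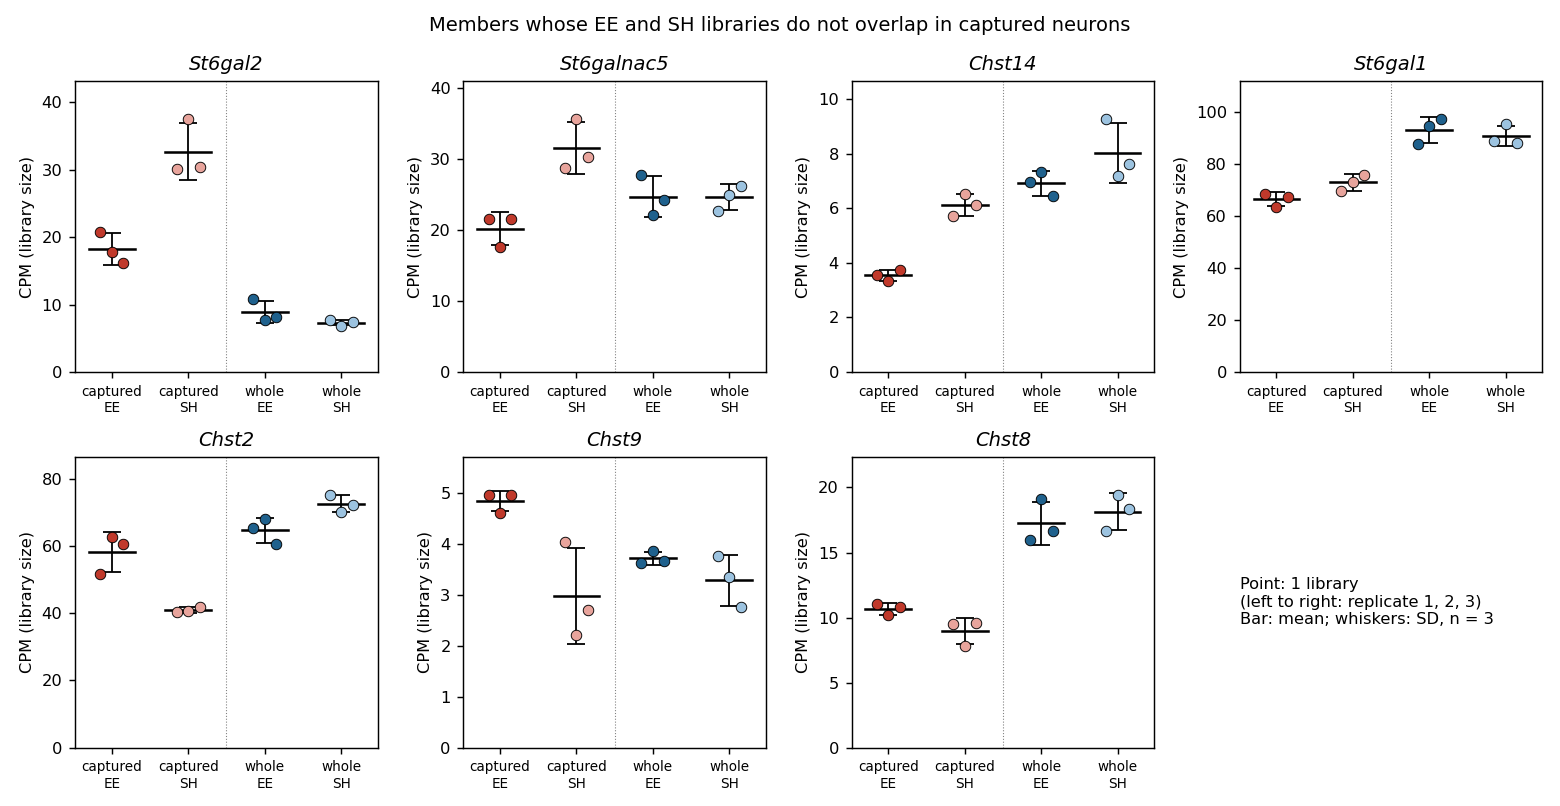
CPM in each library (points), with the mean and SD of 3 libraries, for the 7 genes whose EE and SH libraries did not overlap in captured neurons. Captured EE points of St6gal2 lie at 16.2 to 20.8 CPM and captured SH points at 30.1 to 37.5 CPM, a far wider gap than between the whole-ganglion points.

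Among the enzymes that sialylate galactose, St6gal2 stood out. Its product prefers free oligosaccharides to glycoproteins and is mainly a brain enzyme. The gene (chromosome 17, positions 55445382 to 55514581 on GRCm38, plus strand) had 20.8, 17.8 and 16.2 CPM in the captured EE libraries, against 30.1, 37.5 and 30.4 CPM in the captured SH libraries. All EE libraries were below all SH libraries, with means of 18.3 ± 2.33 CPM in EE and 32.7 ± 4.21 CPM in SH (SD, n = 3 each) and a log2 fold change of -0.85 (SE 0.13). St6gal1, the ubiquitous enzyme that caps the N-glycans of secreted and membrane proteins, had 68.8, 63.7 and 67.3 CPM in captured EE and 69.8, 73.2 and 76.0 CPM in captured SH libraries. Its groups also did not overlap, but by a narrow margin, and its log2 fold change was -0.14 (SE 0.071). The 6 St3gal genes, whose products cap galactose at another position and, through St3gal5, start the ganglioside series, all had overlapping libraries and log2 fold changes of -0.01 to 0.18.

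St6galnac5 encodes the enzyme that turns the ganglioside GM1b into GD1α, a glycolipid best known from brain. It had 21.6, 17.6 and 21.5 CPM in captured EE libraries, against 28.8, 35.7 and 30.4 CPM in captured SH libraries. The groups did not overlap, and the log2 fold change was -0.65 (SE 0.12). Its exons share 108 bases with Pigk on the opposite strand. Opposite-strand overlap of exons occurred for 10 of the 34 genes, the longest being St3gal6 with Dcbld2 (1603 bases), Chst15 with Gm10584 (1206) and St8sia3 with St8sia3os (919), and it also touched St6gal1, St8sia1, St8sia5, St8sia6, St3gal4 and St6galnac2. How the counting treated strand is not given in the sources used here, so reads of these pairs may be mixed. St6galnac3, a ganglioside-active relative whose gene lies 216 kb from St6galnac5 on chromosome 3 with 0 coding genes between them, had 4.89, 3.02 and 4.90 CPM in captured EE and 6.52, 6.15 and 3.99 CPM in captured SH libraries. These overlapped, and the log2 fold change was -0.38 (SE 0.25). All 5 St6galnac genes that entered the fit had a negative estimate, the others lying between -0.12 and -0.01. Within lane 3, 1 of them had a positive estimate, and 2 did without EE replicate 2. The 6 summed to 55.7, 47.2 and 52.0 CPM in captured EE against 60.9, 69.0 and 64.5 CPM in captured SH libraries. The means of these sums were 51.6 CPM in EE and 64.8 CPM in SH, and those of St6galnac5 alone 20.2 and 31.6 CPM.

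The ST8Sia genes, which extend chains with further sialic acids, had overlapping EE and SH libraries in captured neurons throughout. St8sia3, whose product makes short oligosialic chains and is abundant in nervous tissue, had 141, 140 and 152 CPM in captured EE and 151, 182 and 147 CPM in captured SH libraries. St8sia1, the GD3 synthase that opens the b-series of gangliosides, had 104, 126 and 121 CPM in captured EE and 124, 131 and 129 CPM in captured SH libraries. Of the polysialic acid synthases, St8sia4 had 18.7, 17.8 and 22.1 CPM in captured EE against 19.1, 15.7 and 17.7 CPM in captured SH libraries, and St8sia2, mainly an embryonic enzyme, stayed between 0.57 and 1.47 CPM in the 6 libraries. St8sia6, which acts on O-glycans, had 3.70, 5.02 and 4.04 CPM in captured EE and 4.07, 4.45 and 4.87 CPM in captured SH libraries. The widest estimate in this branch was that of St8sia5, a synthase of multiply sialylated gangliosides, with 2.04, 3.89 and 4.40 CPM in captured EE and 2.19, 1.51 and 3.26 CPM in captured SH libraries, and its SE of 0.34 around a log2 fold change of 0.56 shows how loosely these low counts fix it.

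Among the sulfotransferases, Chst2 had the largest estimate relative to its SE. It encodes the N-acetylglucosamine sulfotransferase that works on keratan sulfate and on selectin ligands. The gene had 51.5, 62.7 and 60.5 CPM in captured EE libraries, against 40.3, 40.6 and 41.9 CPM in captured SH libraries. EE libraries were all higher, with means of 58.2 ± 5.90 CPM in EE and 41.0 ± 0.840 CPM in SH (SD, n = 3 each) and a log2 fold change of 0.50 (SE 0.088). Chst14, whose product sulfates dermatan chains and helps to fix their iduronic acid, had 3.57, 3.33 and 3.72 CPM in captured EE libraries against 5.70, 6.51 and 6.12 CPM in captured SH libraries. It rested on 65 to 105 reads per EE library and 112 to 142 reads per SH library, with no overlap and a log2 fold change of -0.80 (SE 0.16).

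Chst8 and Chst9 encode the pair of sulfotransferases that act on N-acetylgalactosamine of glycoprotein hormones and related N-glycans. Chst9 had 4.96, 4.61 and 4.95 CPM in captured EE and 4.02, 2.20 and 2.69 CPM in captured SH libraries, a log2 fold change of 0.70 (SE 0.22) from 48 to 79 reads per SH library. Chst8 had 11.0, 10.2 and 10.8 CPM in captured EE and 9.47, 7.84 and 9.59 CPM in captured SH libraries, a log2 fold change of 0.25 (SE 0.12). Both pairs of groups were separate, EE above SH. The chondroitin enzymes behaved otherwise. Chst15, which adds a further sulfate to already sulfated chondroitin, had 61.2, 52.3 and 53.7 CPM in captured EE and 54.0, 75.7 and 58.0 CPM in captured SH libraries, which overlapped, and Chst3, Chst11 and Chst12, which set the main sulfation sites of chondroitin, had log2 fold changes of 0.13, -0.01 and -0.17 with SEs of 0.13, 0.12 and 0.15.

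Across the 30 genes in the captured fit the median log2 fold change was -0.0067, against -0.00059 over all genes, with 14 positive and 16 negative estimates between -0.85 and 0.70. The 19 sialyltransferases had 7 positive and 12 negative estimates and a median of -0.03, and the 11 sulfotransferases 7 positive and 4 negative estimates and a median of 0.13. All 34 genes summed to 735, 770 and 796 CPM in captured EE and 775, 854 and 791 CPM in captured SH libraries, which overlapped.

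**Figure D2:**
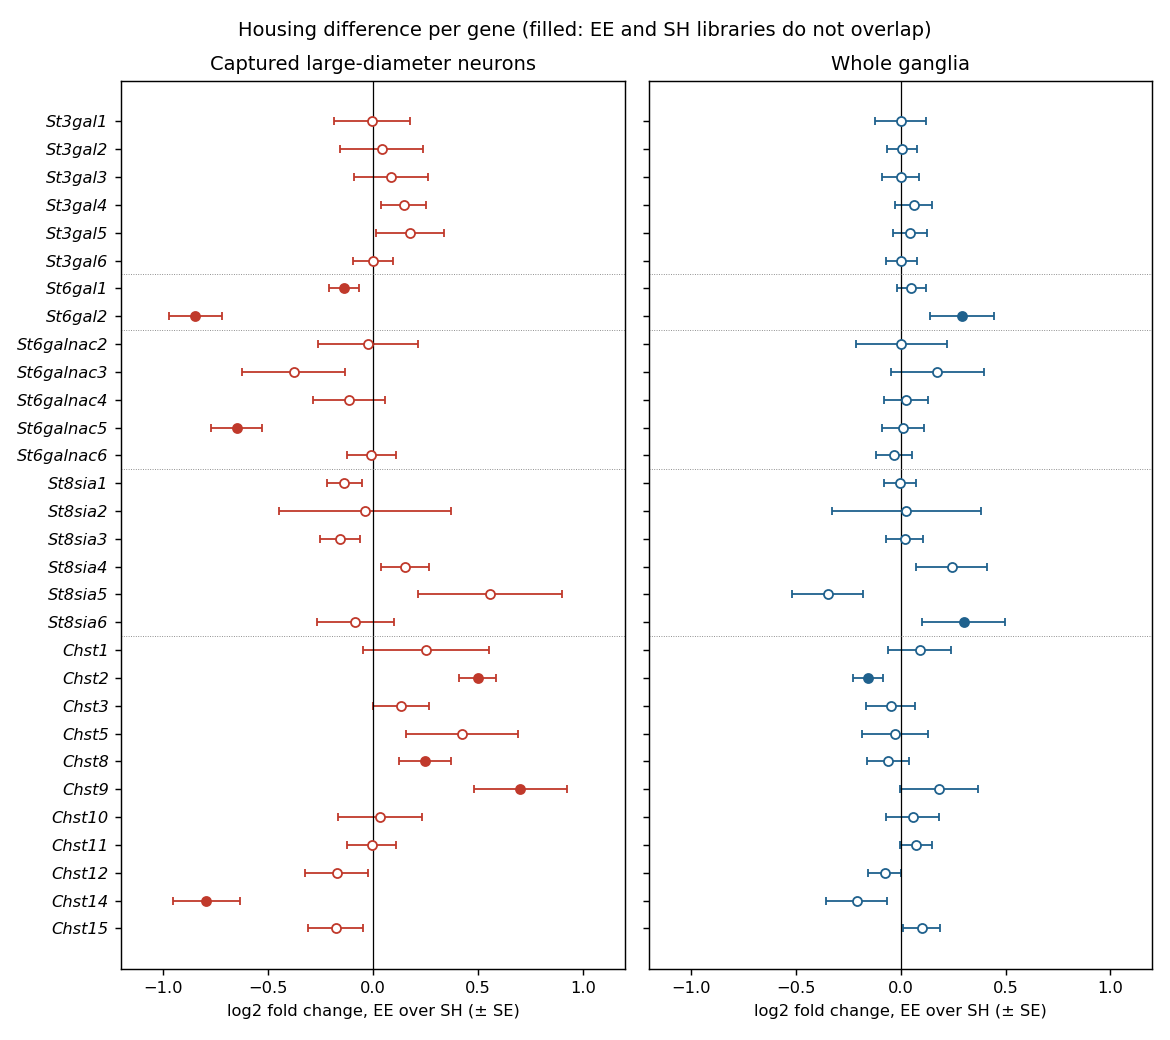
Log2 fold change of EE over SH with its SE for each member in captured neurons (left) and whole ganglia (right), grouped by branch of the family, with filled points where EE and SH libraries did not overlap. St6gal2, Chst14 and St6galnac5 lie farthest left in captured neurons (-0.85, -0.80 and -0.65), and the whole-ganglion points all lie between -0.35 and 0.30.

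Captured libraries ran in several lanes per the labels (EE in lanes 1, 3 and 3, SH in lanes 3, 2 and 3). Within lane 3, with EE replicates 2 and 3 against SH replicates 1 and 3, the log2 fold change was -0.82 for St6gal2 (SE 0.11) and -0.58 for St6galnac5 (SE 0.12). It was -0.73 for Chst14 (SE 0.21) and 0.59 for Chst2 (SE 0.076). The lane 3 libraries are among the 6 in which EE and SH did not overlap for these genes. Their side of 0 was thus largely fixed beforehand and says nothing about lane. St6gal2, St6galnac5 and Chst2 passed the threshold within lane 3, 3 members beside 4.06% of all genes. The same 3 passed in DESeq2's Wald test (3.23% of all genes), where Chst14 and Chst9 were given no adjusted p, and these with Chst14 passed when no genes were filtered (2.48%) or when EE replicate 1, the only library of lane 1, was left out (3.64%). No member passed in limma-voom, with other scalings, or without any other library. Over these fits and the others of the plot by processing choice, St6gal2 kept a log2 fold change of -0.95 to -0.72 and Chst2 of 0.46 to 0.59.

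**Figure D3:**
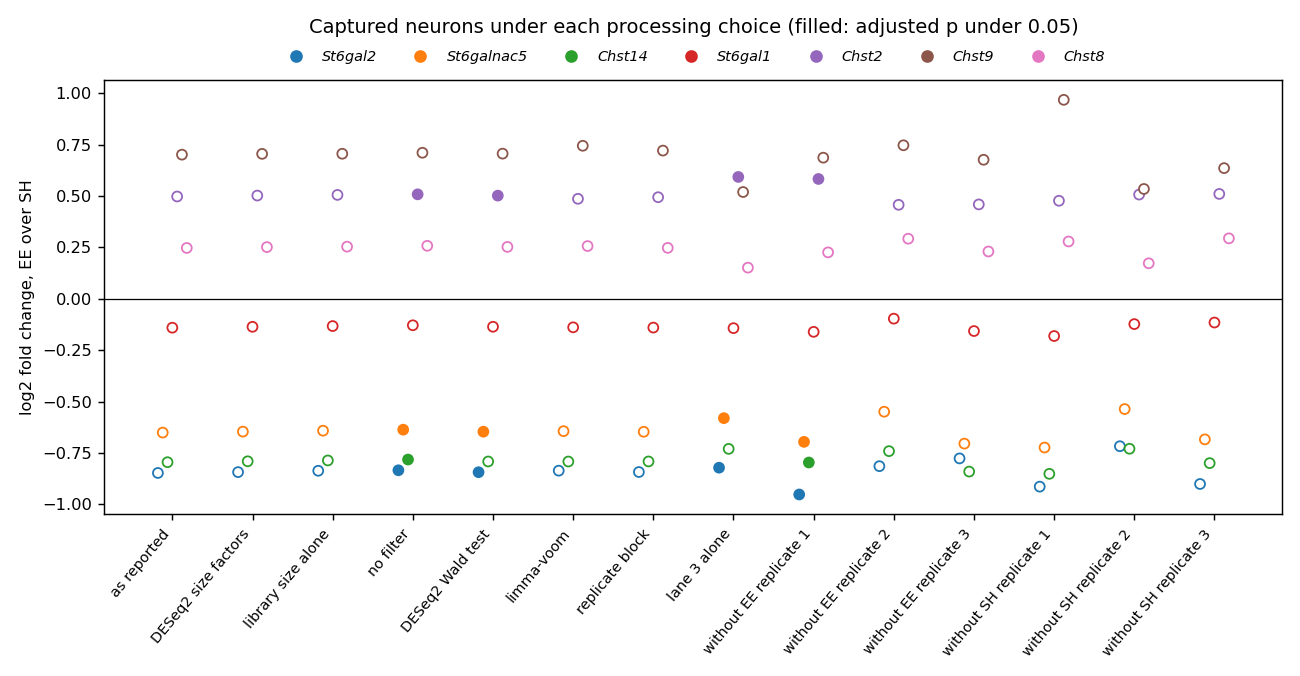
Log2 fold change of EE over SH in captured neurons for the 7 genes under the reported fit and each other processing choice (columns), filled where the adjusted p was under 0.05. The 7 genes were picked for EE and SH libraries without overlap, which largely fixed their side of 0 beforehand, and no point crosses it. Filled points occur under 4 choices only: no filter, DESeq2's Wald test, lane 3 alone and without EE replicate 1.

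Summed cell type markers also differed with housing in the same captured libraries. Of 24 nociceptor markers, 22 had a negative estimate, 16 had every EE library below every SH library and 1 passed the threshold, and their summed level was 3985 to 4962 CPM in EE and 5143 to 6026 CPM in SH libraries. Of 17 large-diameter neuron markers, 16 had a positive estimate and 4 did not overlap, with sums of 11372 to 15225 CPM in EE and 8617 to 10957 CPM in SH libraries. Of 15 satellite glia markers, 12 had a positive estimate, 6 did not overlap and 1 passed, with sums of 4521 to 4773 CPM in EE and 3812 to 4170 CPM in SH libraries. Of 9 markers of all sensory neurons, 6 had a positive estimate, 4 did not overlap with EE higher and 1 with EE lower, with sums of 6573 to 6717 CPM in EE and 5735 to 6155 CPM in SH libraries. Of 12 macrophage markers, 11 had a positive estimate and 3 did not overlap, with sums of 68.6 to 89.0 CPM in EE and 56.0 to 82.1 CPM in SH libraries. Schwann cell, fibroblast, endothelial and erythrocyte lists had at most 1 gene without overlap in each direction. Within lane 3, 19 nociceptor markers passed lower in EE (2.18% of all genes). There 11 large-diameter neuron and 5 satellite glia markers passed higher in EE (1.88% of all genes). DESeq2's Wald test called 14 nociceptor, 7 large-diameter neuron and 5 satellite glia markers (3.23% of all genes). Each other list had at most 1 call per direction in lane 3 and 2 in DESeq2. In edgeR's test on all captured libraries, 9.82% of all genes had no overlap with EE higher, 11.1% had none with EE lower, and 0.0185% passed the threshold. No marker of these lists was at 0 in all libraries. Their part in the values of St6gal2, St6galnac5, Chst14 and Chst2 was not tested.

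In whole ganglia, all 30 genes in the fit lay within a log2 fold change of -0.35 to 0.30 and none passed the threshold in edgeR's test, in which 1 of 15845 genes was called (0.00631%). An unadjusted p under 0.05 was found for 1 of the 30, against 2.9% of all genes, and neither DESeq2 nor limma-voom called a member. With the numbers that share a lane as a replicate block, 32 genes (0.202%) and 0 members passed. The median was 0.02, against 0.00 over all genes, with 21 positive and 9 negative estimates. The 34 genes summed to 1035, 1004 and 1006 CPM in EE and 1010, 1008 and 1034 CPM in SH ganglia. EE and SH ganglia did not overlap for 3 of the 30 (10.0%), against 7.6% of all genes.

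Those 3 genes were Chst2, St6gal2 and St8sia6. Chst2 had 65.4, 67.9 and 60.7 CPM in whole EE and 75.3, 70.2 and 72.2 CPM in whole SH ganglia, a log2 fold change of -0.16 (SE 0.071), the opposite side of 0 from captured neurons. St6gal2 had 10.8, 7.71 and 8.23 CPM in whole EE and 7.69, 6.89 and 7.35 CPM in whole SH ganglia, a log2 fold change of 0.29 (SE 0.15), also opposite to captured neurons, and the gap between 7.71 and 7.69 CPM closed when TMM-scaled CPM were used. St8sia6 had 2.73, 3.78 and 3.02 CPM in whole EE and 2.64, 2.54 and 2.63 CPM in whole SH ganglia, with 31 to 49 reads per library and a log2 fold change of 0.30 (SE 0.20).

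St6galnac5, Chst14 and Chst9, without overlap in captured neurons, overlapped in whole ganglia. St6galnac5 had 27.9, 22.1 and 24.2 CPM in whole EE and 22.8, 25.0 and 26.3 CPM in whole SH ganglia, a log2 fold change of 0.01 (SE 0.10). Chst14 had 6.96, 7.33 and 6.44 CPM in whole EE and 9.27, 7.18 and 7.62 CPM in whole SH ganglia (log2 fold change -0.21, SE 0.15). Chst9 had 3.61, 3.86 and 3.67 CPM in whole EE and 3.76, 3.34 and 2.76 CPM in whole SH ganglia (log2 fold change 0.18, SE 0.18). St8sia5 had 6.26, 6.87 and 4.81 CPM in whole EE and 8.10, 8.56 and 6.34 CPM in whole SH ganglia, with overlap and the lowest estimate in this preparation, -0.35 (SE 0.17).

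Of the 5 members with the highest CPM in whole ganglia, Chst2 did not overlap between housings and St8sia3, St8sia1, St6gal1 and St3gal2 did. St8sia3 had 181, 143 and 165 CPM in whole EE and 170, 154 and 162 CPM in whole SH ganglia. St8sia1 had 118, 104 and 106 CPM in whole EE and 115, 110 and 106 CPM in whole SH ganglia, and St6gal1 had 87.8, 94.9 and 97.5 CPM in whole EE and 89.0, 95.4 and 88.3 CPM in whole SH ganglia. Their log2 fold changes were 0.02 (SE 0.087) for St8sia3, -0.0029 (SE 0.075) for St8sia1 and 0.05 (SE 0.069) for St6gal1. Chst15 had 51.8, 49.6 and 47.4 CPM in whole EE and 42.1, 44.4 and 53.4 CPM in whole SH ganglia, and Chst8 had 16.0, 19.1 and 16.6 CPM in whole EE and 16.7, 19.4 and 18.3 CPM in whole SH ganglia, which overlapped as well.

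The housing effect in captured neurons minus that in whole ganglia was estimated in 1 fit over all 12 libraries. It was -1.15 on the log2 scale for St6gal2 (SE 0.20), 0.64 for Chst2 (SE 0.11), -0.67 for St6galnac5 (SE 0.17) and -0.60 for Chst14 (SE 0.21). None of the 31 members in that fit, and none of its 17412 genes (0.0%), passed the threshold in edgeR's test, while an unadjusted p under 0.05 was found for 5 of the 31 and for 11.7% of all genes. DESeq2 called Chst2 alone among members, beside 0.833% of all genes, and Chst2 and St6gal2 passed in edgeR's test without captured EE replicate 1, beside 1.32% of all genes. A difference between preparations is also one between kits, cells, RNA quality and animals, which cannot be told apart.

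With the transcript lengths behind the authors' FPKM, St8sia3 had the highest level per length in both preparations and St6gal1 came next, an order that GENCODE exon lengths changed. Levels per length in SH libraries were the authors' deposited FPKM for whole ganglia and CPM divided by the length implied by those FPKM for captured neurons. St8sia3 was at 23.8 ± 2.88 CPM per kilobase in captured neurons and 24.2 ± 1.22 FPKM in whole ganglia (SD, n = 3 each). Next in captured neurons came St6gal1 (14.8 ± 0.627), St8sia1 (13.9 ± 0.371), Chst15 (11.6 ± 2.13) and Chst11 (8.39 ± 0.872 CPM per kilobase). Their SD ranges overlapped between St6gal1 and St8sia1 and between St8sia1 and Chst15, but not between Chst15 and Chst11. In whole ganglia St8sia3 was followed by St6gal1 (18.4 ± 0.793), Chst12 (18.1 ± 1.30), St3gal2 (14.3 ± 1.02) and St3gal5 (14.1 ± 0.460 FPKM), with overlapping SDs between St6gal1 and Chst12 and between St3gal2 and St3gal5. The FPKM length of St6galnac3, 923 bases, is far below the 8994 exon bases in the GENCODE annotation, so its level per length depends on the annotation used. The same holds for St8sia3 (11702 exon bases). With GENCODE exon lengths, added after seeing the data, St8sia3 was at 13.7 ± 1.65 CPM per kilobase in captured neurons and 13.8 ± 0.699 FPKM in whole ganglia. St6gal1 was then at 14.9 ± 0.631 CPM per kilobase in captured neurons and 18.5 ± 0.797 FPKM in whole ganglia and ranked 1 in both, and St8sia3 ranked 3 in captured neurons and 4 in whole ganglia. The SD ranges of these genes overlapped in captured neurons and not in whole ganglia.

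**Figure D4:**
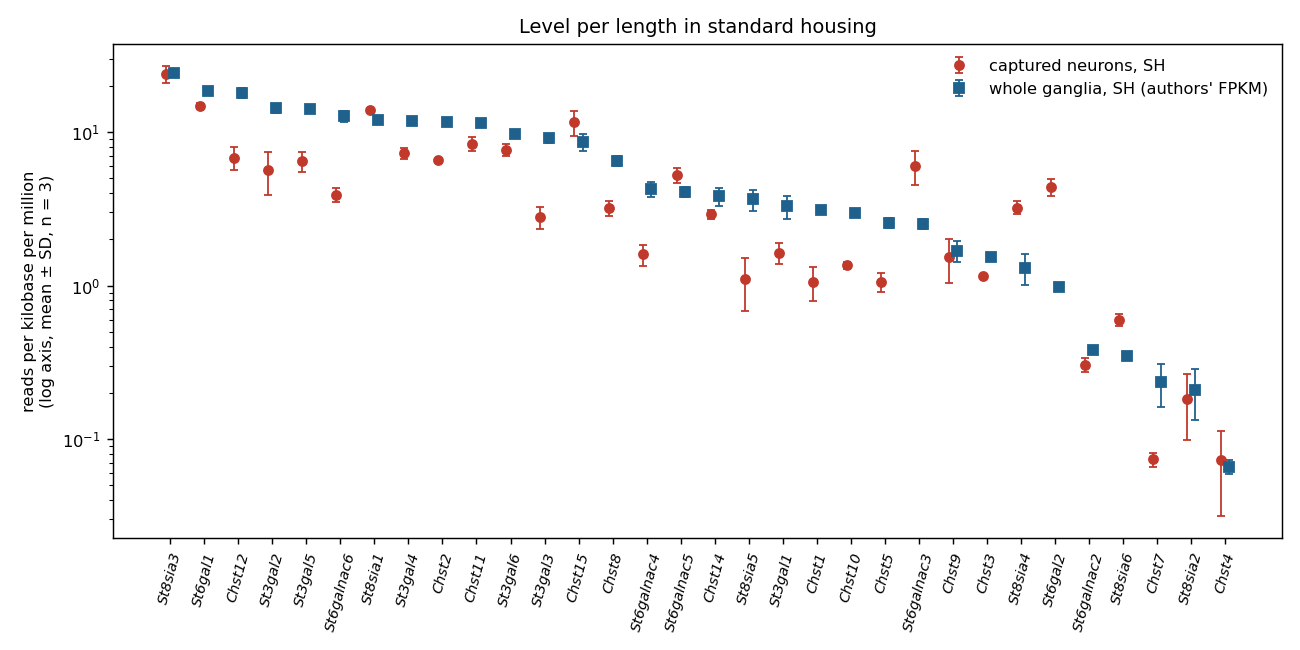
Level per length in SH libraries (log axis, mean and SD of 3 libraries) for captured neurons (CPM per kilobase, circles) and whole ganglia (authors' FPKM, squares), ordered by the whole-ganglion level. With the lengths behind the FPKM, St8sia3 is highest in both (23.8 and 24.2), and St6gal2 lies well above its whole-ganglion level in captured neurons (4.41 and 0.986).

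St6gal2 also had the largest ratio of captured to whole SH libraries in the family, 4.47-fold, or 4.41 ± 0.568 CPM per kilobase in captured neurons and 0.986 ± 0.0536 FPKM in whole ganglia, where it ranked 14 and 27 among the 34 genes. In EE libraries the log2 ratio was 1.03, against 2.16 in SH libraries. St8sia4, St6galnac3 and St8sia6 followed at 2.47-fold, 2.38-fold and 1.72-fold in SH libraries. St8sia4 had 9.17, 7.48 and 8.56 CPM in whole EE and 8.80, 5.66 and 6.81 CPM in whole SH ganglia, below every captured library. St6galnac3 had 3.09, 2.01 and 2.77 CPM in whole EE and 2.17, 2.32 and 2.49 CPM in whole SH ganglia, which overlapped the captured EE libraries. At the other end, captured neurons had less St8sia5 (3.30-fold), St3gal3 (3.27-fold), St6galnac6 (3.23-fold) and Chst1 (2.93-fold) than whole ganglia. St3gal3, which builds sialyl-galactose on glycoproteins, had 7.03, 8.40 and 9.49 CPM in captured EE, 8.40, 8.62 and 6.27 CPM in captured SH, 22.6, 26.7 and 26.2 CPM in whole EE and 23.5, 26.5 and 26.3 CPM in whole SH libraries. St6galnac6, a ganglioside enzyme, had 21.6, 18.3 and 16.7 CPM in captured EE, 18.1, 17.6 and 21.0 CPM in captured SH, 52.5, 66.0 and 59.0 CPM in whole EE and 56.1, 60.9 and 66.3 CPM in whole SH libraries. Chst1, a keratan sulfotransferase, had 4.76, 2.25 and 3.13 CPM in captured EE, 3.31, 3.21 and 2.02 CPM in captured SH, 7.32, 10.9 and 8.23 CPM in whole EE and 8.57, 8.05 and 8.42 CPM in whole SH libraries. For all 3, every captured library was below every whole library.

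Of 30 members with at least 1 CPM in either preparation, 7 (23.3%) were higher and 23 lower in captured than in whole SH libraries. Over 15923 genes, 41.1% were higher. The median log2 ratio was -0.43 in members, against -0.24 over those genes. Scaling by TMM over all 12 libraries moved the median of members to -0.20 and the count of higher ones to 10. No value over all genes is given for that scaling. Over all 6 captured against all 6 whole libraries, St6gal2 and St8sia4 were higher in captured neurons without overlap, 17 members were lower and 11 overlapped. No share over all genes is given beside this count, so it shows nothing particular to the family. St3gal2, among the 5 highest genes by CPM in whole ganglia, had 27.5, 29.1 and 32.2 CPM in captured EE, 33.1, 34.3 and 18.3 CPM in captured SH, 70.7, 75.4 and 70.0 CPM in whole EE and 69.3, 69.5 and 78.3 CPM in whole SH libraries. Capture and kit were changed together, so these ratios cannot be assigned to either.

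The 4 genes outside both housing fits had few reads. St6galnac1, the mucin-type enzyme of epithelia, had 0 reads in all 6 whole-ganglion libraries, where a count of 0 allows up to 0.176 to 0.264 CPM, and up to 5 reads in a captured library. Chst13, a chondroitin enzyme, had 0 reads in all 3 captured SH libraries and at most 2 in any library. Chst4, the enzyme of lymph node venules, had at most 5 reads, and Chst7 had 2 to 8 reads in captured and 4 to 11 in whole libraries.

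Around the family, 101 genes of sialic acid and sulfate supply, sialidases, ganglioside cores, other glycan sulfotransferases, chondroitin chains, sulfatases, acceptor proteins and siglecs were listed, of which 100 were in the tables. In edgeR's test none passed the threshold among 90 in captured neurons or 89 in whole ganglia, where 21 (23.3%, against 15.9% of all genes) and 1 (1.12%, against 2.9%) had an unadjusted p under 0.05. DESeq2 called 7 in captured neurons (7.78%, against 3.23% of all genes) and 0 in whole ganglia, and limma-voom none in either. Within lane 3, 3 captured-neuron genes passed higher in EE (1.88% of all genes) and 7 lower (2.18%). In captured neurons 10 had every EE library above every SH library (11.1%, against 9.82% of all genes) and 15 had every EE library below (16.7%, against 11.1%). In whole ganglia 1 was above (1.12%, against 2.69% of all genes) and 8 were below (8.99%, against 4.92%). Of the ganglioside core, B4galt5, which makes lactosylceramide, had 57.6, 49.7 and 54.9 CPM in captured EE and 63.3, 71.8 and 65.6 CPM in captured SH libraries (log2 fold change -0.32, SE 0.088), and Ugcg, the glucosylceramide synthase before it, had a log2 fold change of -0.27 (SE 0.086).

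Heparan sulfate enzymes differed in sign. Hs3st1 had 9.85, 10.0 and 10.4 CPM in captured EE and 6.57, 5.73 and 7.98 CPM in captured SH libraries (log2 fold change 0.57, SE 0.15), and lay on the other side of 0 in whole ganglia (-0.35, SE 0.12), while Hs6st2 and Ndst3 had -0.35 and -0.42 in captured neurons. Of the 8 listed sulfatases, which take sulfate off glycans and glycolipids, 7 had negative estimates in captured neurons, among them Arsb, which acts on dermatan and chondroitin sulfate (-0.45, SE 0.12), and Ids, which acts on dermatan and heparan sulfate (-0.37, SE 0.095). Of the acceptor proteins, the adhesion molecule L1cam had 457, 432 and 444 CPM in captured EE and 531, 626 and 531 CPM in captured SH libraries (log2 fold change -0.35, SE 0.083), and Cadm1 and Vcan had -0.30 and -0.36, with 9 of the 16 genes on the positive side.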

How the data were processed

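RNA of captured neurons (RiboZero ScriptSeq kit, 125 bases) and of whole ganglia (TruSeq mRNA kit, 100 cycles) was sequenced in paired ends, per the labels' protocols. Read counts per gene name, not normalized, are the authors' deposited values. Aligners, counters and statistics tools appear in the submitters' processing notes with no role: HTSeq 0.6.0, TopHat2 2.0.12 with Bowtie2 2.2.3, and edgeR 3.8.6. The same notes give the build as mm10. FPKM of whole ganglia are the authors' deposited values, and the second table of captured neurons was not used here. The word Sham in whole-ganglion column names is not explained by the labels, and columns were matched by housing and number. The 5 summary rows were left out of library sizes (reads outside genes 28.0 to 36.3% in captured and 47.0 to 47.6% in whole libraries).

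Each preparation was fitted on its own over the whole table with edgeR 4.0.16 (filterByExpr, TMM, quasi-likelihood test, Benjamini-Hochberg adjustment at 0.05) in R 4.3.3, the difference between preparations as an interaction over 12 libraries. The scripts were tested on simulated data. CPM are counts scaled to the reads in genes of the library, without TMM. A floor of 3 counts stands for a count of 0, and intervals and floors cover counting error only. Positions are those of GENCODE on GRCm38, the assembly of mm10, and promoters those of RefSeq on GRCm38.p6. Alternatives were DESeq2 1.42.0, limma-voom (limma 3.58.1), other scalings and filters, the captured libraries of lane 3, each library omitted in turn, and a replicate block. TMM-scaled CPM for overlap and GENCODE exon lengths were added after seeing the data.

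Values in every library were given for members without overlap between EE and SH, past the threshold in any fit, among the 5 highest by CPM, or among the 4 largest or 4 smallest ratios of captured to whole SH libraries. Other genes of the pathway were picked by smallest p, up to 3 per list and comparison, among those without overlap. Not all of them are described above. The rest in captured neurons were Npl, Neu1 and B3gat3, higher in EE, and Impad1, B3gat2 and Xylt2, lower in EE. In whole ganglia they were Csgalnact1, higher in EE, and Slc35a1, Papss2, Hs3st4, Hs3st2, B4galt7 and B3gat1, lower in EE. Members, lists of genes and these rules were chosen with earlier results of these data known. Whole-ganglion libraries of the same number shared a lane per the labels, so the numbers pair them by lane. Deviations of same-numbered libraries from their groups had correlations of 0.33, 0.15 and 0.10 over genes. Whole-ganglion libraries of different numbers had -0.33 to 0.19, so the correlations alone do not settle the pairing.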

Additional observations from a re-analysis of the deposited data

How the results depend on the processing

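In captured neurons the number of members past the threshold, 0 as reported, was 4 with no filter on low counts (2.48% of all genes). It was 3 in DESeq2 (3.23%) and 3 within lane 3 (4.06%). When each library was left out in turn it was 0 to 4, the 4 without EE replicate 1 (3.64%). The number whose EE and SH libraries did not overlap, 7 as reported, was 14 within lane 3 (46.0% of all genes) and 8 to 12 with a library left out (27.0 to 36.0% of all genes). In whole ganglia 3 members did not overlap, against 3 to 10 with a library left out, the highest without EE replicate 2 (13.7 to 21.9% of all genes). St6galnac5 in whole ganglia changed sign, to a log2 fold change of -0.090 without EE replicate 1 and -0.040 without SH replicate 1, within -0.090 to 0.095 over the libraries left out. For the difference between preparations, 0 members passed as reported, 3 with no filter (1.24% of all genes) and 1 in DESeq2 (0.833%). With captured lane 3 alone 2 passed (0.988%). With a library left out 0 to 2 passed, the 2 without captured EE replicate 1 (1.32%). The median log2 ratio of captured over whole libraries was -0.20 with TMM over 12 libraries, against -0.43. The causes were not tested.

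With the replicate block, 0 members passed in captured neurons, in whole ganglia and in the difference, and over all genes 32 passed in whole ganglia, against 1 without the block. In captured neurons the numbers do not pair all the libraries by lane. Same-numbered captured libraries had correlations of 0.089, -0.0088 and 0.12, against -0.15 to 0.053 for different numbers. St6gal2 had a log2 fold change of -0.84 in captured neurons with the block. With 3 libraries per group, genes of a few CPM such as St8sia5 are fixed loosely, and leaving out 1 library leaves a group of 2.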
